A study of Ovis aries with 62 samples.

Results

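The genes studied here, which handle acid, bicarbonate and the transport of organic acids in the rumen wall, were followed over 62 sheep: *SLC9A3* (ENSOARG00000015862), *SLC9A2* (ENSOARG00000013050), *CA12* (ENSOARG00000020784) and *BSG* (ENSOARG00000008783). They were chosen by name, as the rows of the expression table for these gene IDs, and make up 4 of 16011 genes. All of them had reads in all 62 libraries. RNA of the whole ventral wall of the rumen, muscle layers included, was sequenced from AUS ewes (daughters of Merino sires, about 3 years old, 1 library per sheep) that were measured in 4 test blocks, each a test period, with 16, 16, 14 and 16 sheep in blocks 1 to 4. The ewes were all fed lucerne and oat chaff and were measured in respiration chambers, and the labels give test block, live weight, CH4 production and dry matter intake (DMI). Sire is not in the labels, so no test below accounts for relatedness, and each *p* takes the sheep as independent.

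The rumen ferments feed to short chain fatty acids, which its stratified epithelium absorbs while it keeps the contents from turning too acid. Sodium-proton exchangers of the SLC9 family move protons out of the epithelial cell in exchange for sodium, and *SLC9A3* (NHE3) and *SLC9A2* (NHE2) are the members known from the apical side of absorptive epithelia. *CA12* encodes a membrane-bound carbonic anhydrase that interconverts carbon dioxide and bicarbonate at the cell surface. *BSG* encodes basigin, a membrane glycoprotein that carries monocarboxylate transporters such as MCT1 (*SLC16A1*) to the cell surface, where they move lactate and ketone bodies together with protons.

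The levels of the 4 genes are given in log2 CPM (gene reads scaled to a library size set for each sheep, on a log2 scale). That size was not simply the sum of assigned reads. In sheep oz171, 620 reads of *SLC9A3* were 92.8 CPM beside 5835938 assigned reads. The levels are not corrected for transcript length, so they compare sheep within a gene and do not rank the genes against each other. The 62 libraries held 4208032 to 12130080 assigned reads, and the lowest value of any of the 4 genes rested on 119 reads. In the whole wall, fewer epithelial cells and less RNA per epithelial cell cannot be told apart. For this reason the muscle mean (the mean log2 CPM of the genes that the study placed in a muscle cluster) is set beside each result. It ran from 5.71 to 6.63 with a median of 6.33 in block 1, against 5.02 to 6.41 with a median of 5.85 in blocks 2–4, and 7 of 16 block 1 sheep lay above the highest of the other blocks. The study built its clusters on networks that include these sheep. It placed *SLC9A3* with epithelial differentiation, *SLC9A2* and *CA12* with metabolism and *BSG* with lipid/oxo-acid metabolism, and it listed *BSG* and *CA12* for a relation with CH4 or butyrate, so none of these memberships is independent of the values below.

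The question of the block comparison is whether the genes differed between the test periods. The study had already reported lower expression of epithelial differentiation genes, the cluster that holds *SLC9A3*, in block 1 of these same sheep. Setting block 1 against the other blocks is therefore not independent of these data. Both sodium-proton exchangers were lower in block 1 than in blocks 2–4, by 2.23-fold for *SLC9A3* and 2.20-fold for *SLC9A2*. *BSG* was lower by 1.24-fold, and *CA12* did not pass the test. *SLC9A3* in block 1 ran from 5.28 to 9.09 log2 CPM with a median of 7.78. It ran from 8.65 to 10.03 with a median of 8.85 in block 2, from 8.30 to 9.74 with a median of 9.03 in block 3, and from 8.34 to 9.57 with a mean of 8.99 in block 4. Block 1 therefore reached from the level of the other blocks down to far below it. Of its 16 sheep, 14 were below the median of blocks 2–4 and 9 were below the lowest sheep of those blocks. In CPM, the block 1 median was 220.6 against 495.6 in blocks 2–4. The difference was -1.16 log2 CPM (SE 0.175, 95% interval -1.51 to -0.81, adjusted *p* = 5.50e-07). Of all 16011 genes, 36.6% passed the same test, 19.4% lower and 17.2% higher in block 1, and the *SLC9A3* difference was the 192nd from the lowest.

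*SLC9A2* showed the same form. It ran from 4.57 to 7.74 log2 CPM with a median of 6.41 in block 1, and from 7.10 to 8.38 (median 7.57), 6.80 to 8.22 (median 7.36) and 7.08 to 8.17 (median 7.71) in blocks 2, 3 and 4. The groups overlapped in the upper part of block 1 only, since 10 of the 16 sheep were below the lowest sheep of the other blocks and 14 below their median. The difference was -1.14 log2 CPM (SE 0.163, interval -1.46 to -0.81, adjusted *p* = 1.86e-07). Between blocks 2, 3 and 4, no pair of blocks differed in either exchanger (each adjusted *p* was 0.918 or more), and of all genes 0% passed for blocks 2 and 3 (1028 at an unadjusted *p* below 0.05), 0% for blocks 2 and 4 (771) and 0.0125% for blocks 3 and 4.

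**Figure D1:**
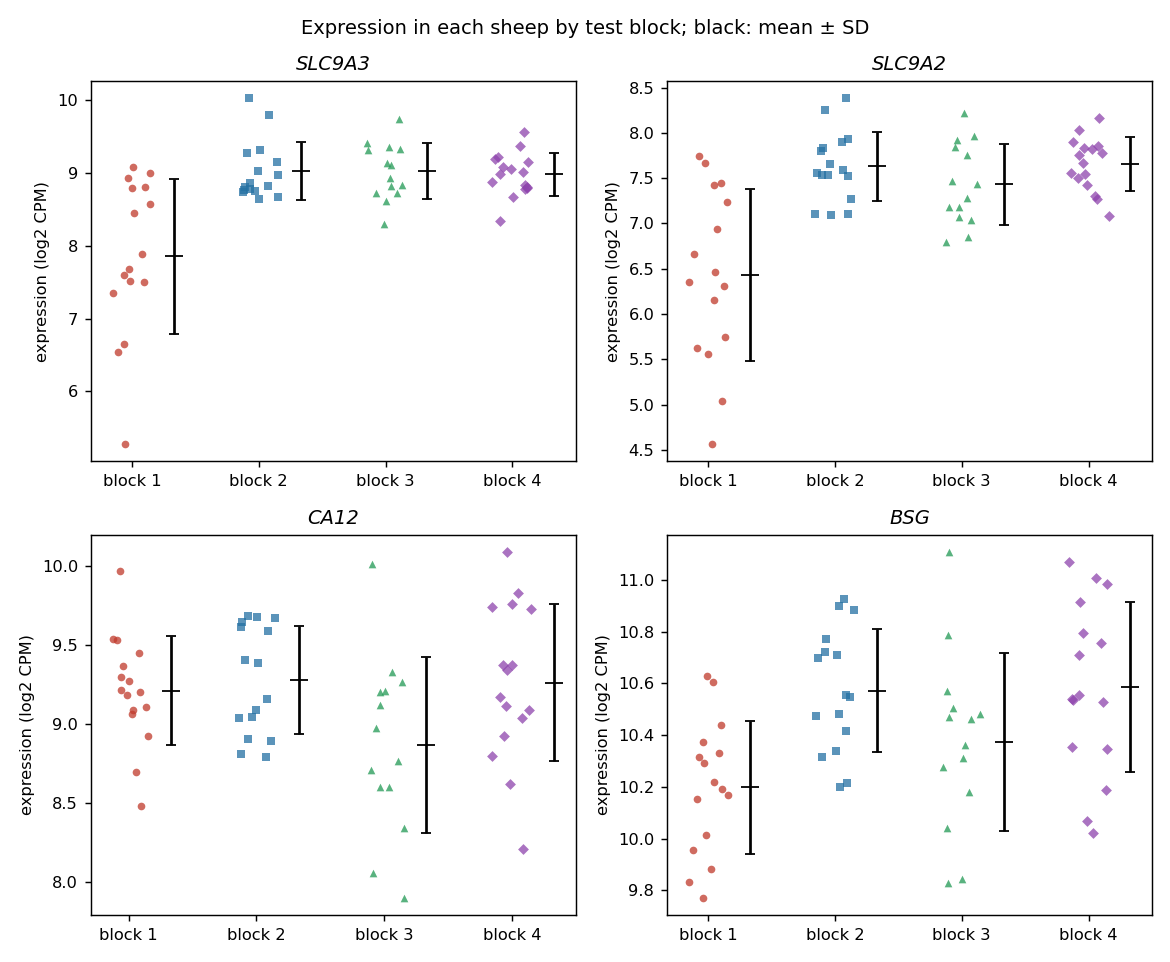
Expression of the 4 genes in each of the 62 sheep (log2 CPM, y axes do not start at 0) by test block, with the mean ± SD of each block in black. *SLC9A3* and *SLC9A2* spread from the level of the other blocks to far below it in block 1, *BSG* shifts down with overlap, and *CA12* overlaps fully and is lowest in block 3.

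The exchangers also spread more in block 1. The SD of *SLC9A3* was 1.07 in block 1 (n = 16) and 0.355 in blocks 2–4 (n = 46), and that of *SLC9A2* was 0.952 and 0.381. The variance of block 1 was thus 9.06 and 6.26 times that of the other blocks, while it was 0.488 times for *CA12* and 0.669 times for *BSG*. Limma takes equal variances, so the difference was also set against a permutation test (2-sided, 100000 permutations) that allows unequal ones. It gave *p* = 9e-05 for each exchanger and 0.00034 for *BSG*.

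*BSG* lay lower in block 1 with much more overlap. It ran from 9.77 to 10.63 log2 CPM (median 10.21) in block 1 and from 9.83 to 11.11 (median 10.52) in blocks 2–4. Although 14 of 16 block 1 sheep were below the median of the others, only 1 was below their lowest. The difference was -0.31 log2 CPM (SE 0.0853, interval -0.48 to -0.14, adjusted *p* = 0.00297).

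*CA12* ran from 8.49 to 9.97 log2 CPM (median 9.21) in block 1 and from 7.90 to 10.09 (median 9.14) in blocks 2–4. Block 1 sat inside the range of the others, with 6 of 16 sheep below their median. The difference was 0.08 log2 CPM (SE 0.124, interval -0.17 to 0.32, adjusted *p* = 0.656). Its lowest block was block 3, with a mean of 8.87 ± 0.555 (SD, n = 14) against 9.28 ± 0.341 (n = 16) in block 2 and 9.26 ± 0.495 (n = 16) in block 4. Over the 4 blocks the *CA12* differences did not pass the test (adjusted *p* = 0.106, 26.5% of genes passed), and without sheep oz141 of block 3 they did (adjusted *p* = 0.0221). In the same test *SLC9A3*, *SLC9A2* and *BSG* passed (adjusted *p* = 1.18e-05, 2.90e-06 and 0.00642), and *BSG* did not after quantile normalization (adjusted *p* = 0.0900).

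The members were then set against each other within each sheep, which does not depend on the scaling of the library. *SLC9A3* minus *SLC9A2* was 1.42 ± 0.305 (SD, n = 16) in block 1 and 1.43 ± 0.299 (n = 46) in blocks 2–4. The exchangers thus kept nearly the same ratio while both were lower, with a difference in their block 1 changes of -0.01 log2 units (SE 0.0880, 2-sided permutation *p* = 0.879, adjusted over 6 pairs 0.879). *SLC9A3* minus *CA12* ran from -3.81 to -0.13 in block 1 and from -0.98 to 1.24 in the other blocks, and 8 of 16 block 1 sheep were below all others. This pair changed by -1.22 log2 units (SE 0.296, adjusted *p* = 1.5e-05). *SLC9A2* minus *CA12* was below the median of the others in all 16 block 1 sheep and below their lowest in 11, with a change of -1.21 (SE 0.262, adjusted *p* = 1.5e-05). Against *BSG*, the change was -0.84 for *SLC9A3* and -0.83 for *SLC9A2* (adjusted *p* = 3.6e-05 and 1.5e-05). *CA12* minus *BSG* was higher in block 1, at -0.99 ± 0.219 against -1.37 ± 0.262, and 0 of 16 block 1 sheep were below the median of the others (change 0.38, SE 0.0671, adjusted *p* = 1.5e-05). The smallest *p* these permutations can give is 1e-05. On the residuals of each difference on the muscle mean, the 5 pairs that differed still did, with changes of -0.83, -0.52, -0.85, -0.53 and 0.32 for *SLC9A3* minus *CA12*, *SLC9A3* minus *BSG*, *SLC9A2* minus *CA12*, *SLC9A2* minus *BSG* and *CA12* minus *BSG* (adjusted *p* 0.00012 to 0.00404).

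The lowest exchanger levels were found in the same sheep. The 4 sheep with the lowest *SLC9A3*, namely oz89, oz171, oz93 and oz125, were also the 4 lowest in *SLC9A2*, and the 9 lowest sheep were the same in both genes and were all from block 1. Sheep oz89 had 195 reads of *SLC9A3* (5.28 log2 CPM) and 119 of *SLC9A2* (4.57), the lowest of all sheep in each. Its *CA12* level was 9.09, which ranked 25th from the lowest of 62. Sheep oz93, with 6.66 in *SLC9A3*, had the highest *CA12* level of block 1 (9.97, 60th of 62). These sheep, with ranks 25, 49, 60 and 33 in *CA12*, were not low in that gene, and their *BSG* ranks were 6, 15, 31 and 7. Low levels in them were not particular to the exchangers. Their means of the epithelial differentiation genes were 6.22, 5.70, 6.03 and 6.57, where the lowest of blocks 2–4 was 7.13. Their libraries held 4754572 to 5835938 assigned reads, against a median of 7923973 over all sheep. Without these 4 sheep, which were picked after their values were seen, the block 1 difference was -0.69 for *SLC9A3* (adjusted *p* = 0.000237) and -0.73 for *SLC9A2* (adjusted *p* = 0.000183), and the count of genes passing over the whole table fell to 2815 from 5860.

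Other measures moved with the block 1 difference. The mean of 9 ruminal epithelium markers (*DSG3*, *KRT78*, *TGM1* and others) ran from 8.25 to 9.99 in block 1 and from 9.14 to 9.96 in blocks 2–4. Of these markers 6 fell, 0 rose and 3 did not pass, where 19.4% of all genes were lower. The 3 were *KRT6-B* (-0.32), *KRT13* (0.31) and *LAMA3* (0.19), so the last 2 went the other way. With the muscle mean as a covariate, 2 of the 9 were lower and 6 did not pass. *LAMA3* was then higher (0.35, limma adjusted *p* = 0.00447), where 7.27% of all genes were lower and 7.53% higher. The mean of 14 smooth muscle markers ran from 9.08 to 11.29 in block 1 and from 8.47 to 10.99 in the others, and all 14 rose, where 17.2% of all genes were higher. Of 12 fibroblast and matrix markers, 8 rose, 0 fell and 4 did not pass. With the muscle mean as a covariate, none of these 12 passed. Of the 14 smooth muscle markers, 0 were then higher, 3 were lower and 11 did not pass. Of the listed markers, 9 of 19 (ruminal epithelium), 14 of 18 (smooth muscle) and 12 of 17 (fibroblast and matrix) could be found by symbol. All that were found were detected in all sheep. They could be named only because tables of the study list them, so their directions are not independent of clusters built with these sheep. Assigned reads were fewer in block 1, with a median of 6812020 against 8567270, and over the 16 block 1 sheep *SLC9A3* and *SLC9A2* had *r* of 0.57 and 0.59 with log2 assigned reads, as a description, while over the 46 other sheep it was -0.29 and -0.41. DMI was highest in block 1 (median 1.42 kg/d against 1.19 kg/d). The part of depth and DMI in the block 1 difference was not tested, and test period and anything else that set block 1 apart cannot be told apart.

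With the muscle mean as a covariate, both exchangers were lower in block 1, *CA12* was higher and *BSG* no longer passed. For the 7 block 1 sheep above the muscle means of all others, which include oz89, oz171 and oz125, this fit extends the slope past the range of blocks 2–4. The difference was -0.72 for *SLC9A3* (SE 0.169, interval -1.06 to -0.39, adjusted *p* = 0.00201) and -0.75 for *SLC9A2* (SE 0.159, interval -1.06 to -0.43, adjusted *p* = 0.000735). It was -0.04 for *BSG* (SE 0.0689, interval -0.18 to 0.10, adjusted *p* = 0.755). For *CA12* it was 0.38 (SE 0.120, interval 0.14 to 0.62, adjusted *p* = 0.0222), where 14.8% of all genes passed, 7.53% higher and 7.27% lower. The *CA12* call was lost without sheep oz93 (0.33, adjusted *p* = 0.0517), without the 4 sheep named above (0.27, adjusted *p* = 0.174) and with 14 smooth muscle markers as the muscle measure (0.28, adjusted *p* = 0.0615). Over the 4 blocks with muscle held constant, *CA12* passed (adjusted *p* = 0.0110, 8.92% of genes passed), with block 3 below block 1 by 0.63 log2 CPM (SE 0.142, adjusted *p* = 0.00193, 12.3% of genes passed). Block 3 did not pass against block 2 or block 4 in the same fit (adjusted *p* = 0.349 and 0.472). Without the covariate these 2 comparisons did not pass either (adjusted *p* = 0.659 and 0.658).

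**Figure D2:**
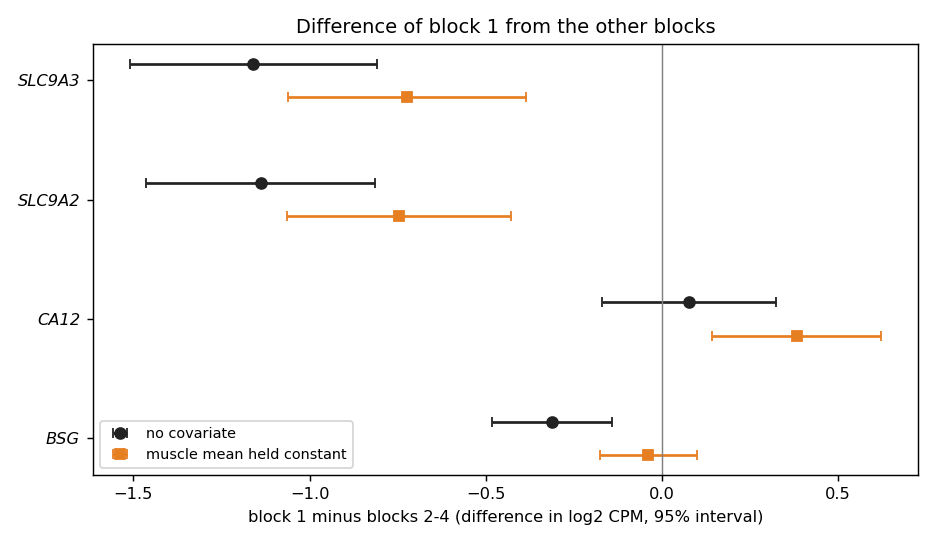
Difference of block 1 from the mean of blocks 2–4 (log2 CPM, points) with 95% intervals (bars) for the 4 genes, without a covariate (black circles) and with the muscle mean held constant (orange squares). Both exchangers lie below 0 in both fits (-1.16 and -0.72 for *SLC9A3*), *BSG* moves from -0.31 to -0.04 and *CA12* from 0.08 to 0.38.

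Levels were compared between members over the 62 sheep, with 6 pairs tested and *p* from 100000 permutations (2-sided, adjusted over the pairs). *SLC9A3* and *SLC9A2* rose and fell together (*r* = 0.928, rho = 0.771, adjusted *p* = 1.5e-05 for each). After leaving out the 2 sheep most distant from the middle *SLC9A3* level, *r* was 0.890, and within blocks 1 to 4 it was 0.961, 0.813, 0.562 and 0.773. Among all 16010 other genes *SLC9A2* ranked 2nd in *r* with *SLC9A3*. With the muscle mean held constant, *r* was 0.867 (adjusted *p* = 3e-05).

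*CA12* and *BSG* also rose and fell together (*r* = 0.754, rho = 0.732, adjusted *p* = 1.5e-05 for each). It held within every block (0.774, 0.821, 0.888 and 0.884), without the 2 sheep farthest in *CA12* (0.718) and with the muscle mean held constant (0.743, adjusted *p* = 3e-05). Block 1 sheep had less *BSG* for their *CA12* than the others, as the within-sheep difference above gives. *BSG* ranked 40th of 16010 genes in *r* with *CA12*.

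The other pairs had lower *r* over the 62 sheep. *SLC9A2* and *BSG* had *r* = 0.652 (rho = 0.786, adjusted *p* = 1.5e-05 for each, *r* = 0.676 without the 2 farthest sheep), with 0.461 in block 1 and 0.704 to 0.769 in the others. *SLC9A3* and *BSG* had *r* = 0.534 (rho = 0.632, adjusted *p* = 1.5e-05 for each, *r* = 0.539 without the 2 farthest sheep), with 0.397 in block 1 and 0.526 to 0.580 in the others. With the muscle mean held constant this pair had *r* = 0.015 (adjusted *p* = 0.907), while *SLC9A2* and *BSG* kept *r* = 0.278 (adjusted *p* = 0.0436).

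*CA12* went with the exchangers in blocks 2–4 and not in block 1. With *SLC9A2*, *r* was 0.743, 0.599 and 0.781 in blocks 2, 3 and 4 and -0.05 in block 1. With *SLC9A3*, it was 0.615, 0.438 and 0.586, and -0.09 in block 1. Over all 62 sheep the values were *r* = 0.223 (rho = 0.459) for *SLC9A2* and *r* = 0.103 (rho = 0.328) for *SLC9A3* (adjusted permutation *p* of *r* 0.0962 and 0.423, of rho 0.000264 and 0.00969). After leaving out the 2 sheep with the most extreme exchanger levels, *r* was 0.320 and 0.174. With the muscle mean held constant the sign turned, to -0.28 for *SLC9A3* and *CA12* (adjusted permutation *p* = 0.0436) and -0.09 for *SLC9A2* and *CA12* (adjusted *p* = 0.561). With block means removed *r* was 0.205 (adjusted *p* = 0.110) and 0.326 (adjusted *p* = 0.0113). The difference between block 1 and the other blocks in these relations was not tested.

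**Figure D3:**
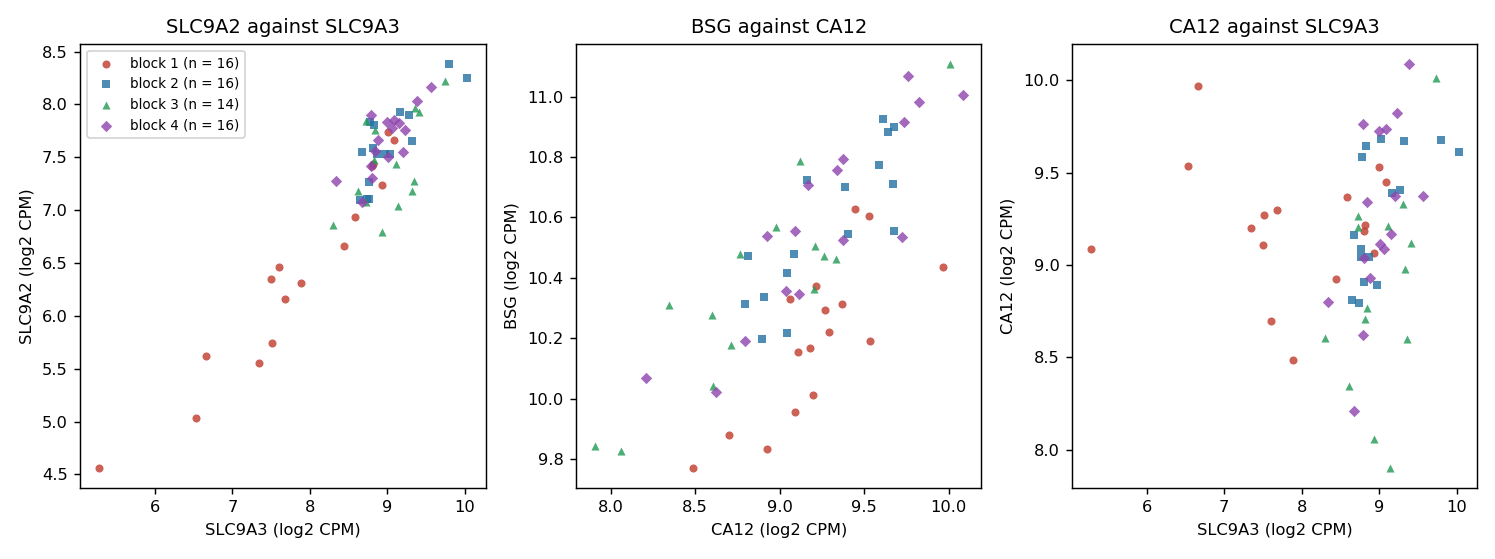
Expression of pairs of genes in each sheep (log2 CPM on both axes, axes do not start at 0), with colour and symbol giving the test block. *SLC9A2* follows *SLC9A3* down to the lowest block 1 sheep (*r* = 0.928), *BSG* follows *CA12* with block 1 on the lower edge (*r* = 0.754), and *CA12* shows no fall in the block 1 sheep that are low in *SLC9A3*.

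All members were lower in sheep with more muscle RNA, which is a description of a mixed wall. The study placed them in epithelial clusters on networks that include these sheep, so a negative slope was close to fixed by that placement. In those clusters 39 of 43 genes (epithelial differentiation), 352 of 354 (metabolism) and 40 of 41 (lipid/oxo-acid metabolism) also fell past the threshold. The slope on the muscle mean was -1.44 log2 CPM per unit for *SLC9A3* (SE 0.192) and -1.37 for *SLC9A2* (SE 0.185). It was -0.68 for *BSG* (SE 0.0729) and -0.52 for *CA12* (SE 0.137), and adjusted *p* ran from 3.07e-12 to 0.00107, where 54.9% of all genes passed. With block held constant the slopes were -1.03, -0.93, -0.64 and -0.72 in the same order (46.4% of genes passed). The slopes did not differ between blocks beyond the threshold in any of the 4 genes (limma adjusted *p* 0.507 to 0.760, 0.15% of genes passed). As a description over the 62 sheep, *r* with the muscle mean was -0.68 for *SLC9A3*, -0.68 for *SLC9A2*, -0.77 for *BSG* and -0.42 for *CA12*. In *CA12* it was -0.23 within block 1 and -0.64 to -0.69 within the others.

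**Figure D4:**
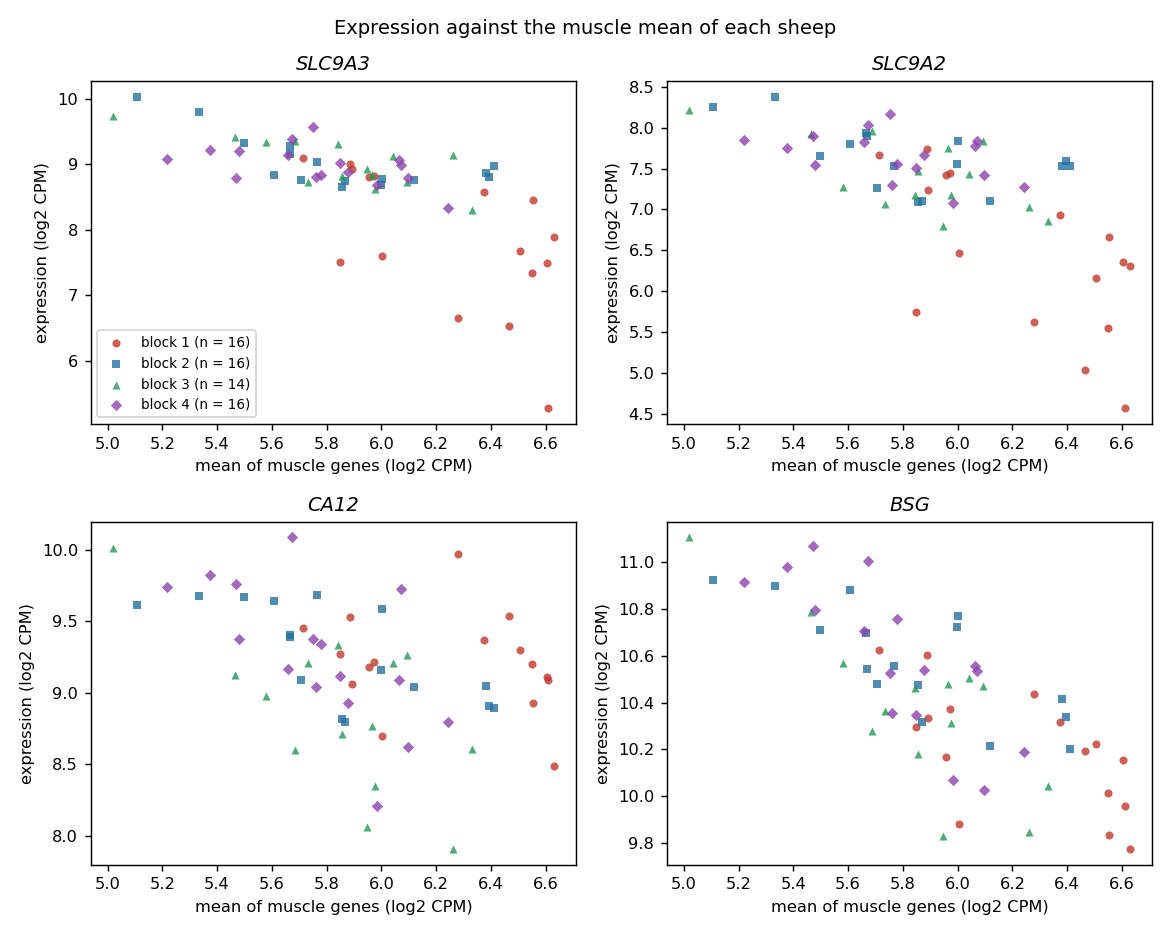
Expression of the 4 genes (log2 CPM) against the muscle mean of the same sheep (mean log2 CPM of the muscle genes), with colour and symbol giving the test block; axes do not start at 0. *SLC9A3* and *SLC9A2* fall with the muscle mean in blocks 2–4 (*r* = -0.67 and -0.55), and 7 block 1 sheep lie to the right of all sheep of those blocks. *BSG* falls along the whole range (*r* = -0.77).

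The next question is whether the genes varied with intake and methane. None of the 4 genes passed the test for DMI, CH4 production or CH4 yield (CH4 over DMI), with or without block and muscle held constant. Of all genes, 0% passed for DMI (1899 at an unadjusted *p* below 0.05), 0.0125% for CH4 production and 0% for CH4 yield (1521). With block and muscle held constant, 0% passed for DMI (1272 at an unadjusted *p* below 0.05), 0.0625% for CH4 production and 0% for CH4 yield (743). Sheep oz151 was left out of DMI and CH4 yield, because its labelled intake of 79.5 g/d is far below the next lowest (376 g/d) and its CH4 value is the same as that of another sheep. DMI then ran from 0.376 to 1.73 kg/d (n = 61) and CH4 production from 13.4 to 34.6 g/d (n = 62).

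*CA12* and *BSG* had the larger slopes on CH4 production. *CA12* rose by 0.037 log2 CPM per g/d (SE 0.0113, unadjusted *p* = 0.00197, adjusted *p* = 0.256), which ranked 15441st of 16011 slopes from the lowest. Its *r* with CH4 production was 0.376 (rho = 0.388, permutation *p* = 0.00265 and 0.00188, 12 relations of members with traits computed) and 0.340 when the 2 sheep most distant from the middle CH4 value were left out. Within blocks 1 to 4 it was 0.369, 0.206, 0.445 and 0.449, so the sign was the same in each block. *BSG* had a slope of 0.022 (SE 0.00857, adjusted *p* = 0.395) and *r* = 0.311 (rho = 0.282, permutation *p* = 0.0143 and 0.0265, *r* = 0.259 without the 2 farthest sheep), with 0.221, 0.306, 0.647 and 0.509 within the blocks. With block and muscle held constant the *BSG* slope was 0.021 with a smaller error (SE 0.00520, interval 0.011 to 0.031, unadjusted *p* = 0.000149, adjusted *p* = 0.0887), where 0.0625% of genes passed. It passed without sheep oz218 (adjusted *p* = 0.0467) or oz143 (adjusted *p* = 0.0498), and in no other fit with 1 sheep left out.

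The exchangers showed no such slope. *SLC9A3* had -0.0051 log2 CPM per g/d (SE 0.0210, interval -0.047 to 0.037) and *SLC9A2* 0.0016 (SE 0.0201, interval -0.039 to 0.042). With block and muscle held constant the values were 0.0029 (SE 0.0143, interval -0.026 to 0.032) and 0.0097 (SE 0.0134, interval -0.017 to 0.037), so slopes as large as that of *CA12* (0.028, SE 0.00951) lie inside the interval of *SLC9A2* and inside that of *SLC9A3*. Over all sheep *r* with CH4 production was -0.03 and 0.01 (rho = 0.04 and 0.12, permutation *p* of *r* 0.817 and 0.939, of rho 0.772 and 0.356; *r* = -0.11 and -0.05 without the 2 farthest sheep). Within blocks 2, 3 and 4 it was 0.216, 0.520 and 0.264 for *SLC9A3* and 0.466, 0.356 and 0.248 for *SLC9A2*, against -0.11 and -0.07 in block 1. The slopes on CH4 production did not differ between blocks beyond the threshold in any of the 4 genes (limma adjusted *p* 0.801 to 0.925, 0% of genes passed, 1187 at an unadjusted *p* below 0.05).

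For DMI, *CA12* had a slope of 0.47 log2 CPM per kg/d (SE 0.194, interval 0.08 to 0.86, unadjusted *p* = 0.0178, adjusted *p* = 0.313). *BSG* had 0.18 (SE 0.148), and 0.34 with block and muscle held constant (SE 0.0918, unadjusted *p* = 0.000533, adjusted *p* = 0.234, 0% of genes passed). *SLC9A3* and *SLC9A2* had -0.44 (SE 0.344) and -0.35 (SE 0.332), and 0.01 (SE 0.251) and 0.12 (SE 0.236) with block and muscle held constant. The study listed *BSG* for CH4 production and CH4 yield by cutoffs on correlation in these and New Zealand sheep, without a significance test. That is another criterion than the tests here. Over the sheep used here *BSG* had *r* = 0.113 with CH4 yield (permutation *p* = 0.389), and -0.016 in blocks 2–4. The slopes on CH4 yield were 0.036 (SE 0.0297) and 0.046 (SE 0.0283) log2 CPM per g/kg for *SLC9A3* and *SLC9A2*, 0.011 (SE 0.0128) for *BSG* and -1.0e-05 (SE 0.0175) for *CA12*. None passed (adjusted *p* 0.605 to 1.00), and differences between blocks in the slopes on DMI and CH4 yield did not pass either (adjusted *p* 0.847 or more, 0% of genes passed for each, 963 and 463 at an unadjusted *p* below 0.05).

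**Figure D5:**
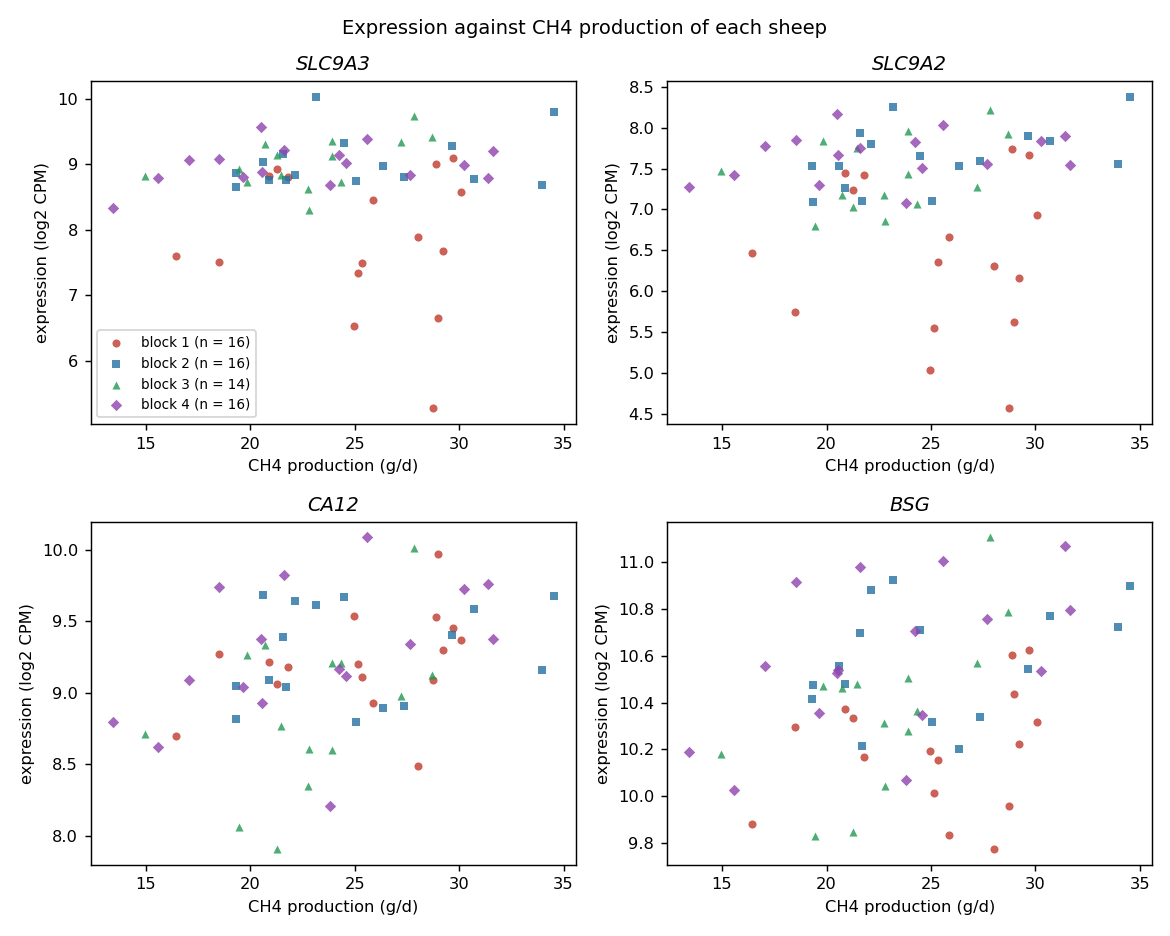
Expression of the 4 genes (log2 CPM) against CH4 production (g/d) in each sheep, with colour and symbol giving the test block; axes do not start at 0. *CA12* and *BSG* tend upward (slopes 0.037 and 0.022 per g/d, neither past the adjusted threshold), and the low block 1 sheep of *SLC9A3* and *SLC9A2* lie at many CH4 levels.

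Of 83 other genes of acid and ion handling listed with earlier results known, 13 could be found by symbol. In block 1 against blocks 2–4, 10 of these 13 fell, 3 rose and 0 did not pass, with a median of -0.32 log2 CPM against -0.00678 over all genes. Over all genes 19.4% were lower and 17.2% higher. The 13 could be named only because tables of the study list them, and calls were more frequent in its clusters, as in one of metabolism where 326 of 354 genes were lower in block 1. The 4 parts and partners of the vacuolar proton pump all fell: *ATP6V0B* by 0.53 (SE 0.0753), *ATP6V1E1* by 0.51 (SE 0.0811), *ATP6AP2* by 0.46 (SE 0.0650) and *ATP6V1A* by 0.35 (SE 0.101). *CHP1*, a cofactor of sodium-proton exchangers, fell by 0.32 (SE 0.113). *SGK1*, a kinase that raises sodium transport, fell by 0.54 (SE 0.116), and *SLC16A1* fell by 0.35 (SE 0.121). The 3 that rose were *WNK1*, a kinase of chloride cotransporters (0.68, SE 0.0863), *SLC12A2*, the sodium-potassium-chloride cotransporter (0.53, SE 0.169), and *ANO6*, a scramblase and ion channel (0.56, SE 0.0993), and their slopes on the muscle mean were positive (0.75, 1.56 and 0.99). With muscle held constant 3 of 13 fell (*ATP6V0B* with -0.28, *ATP6V1E1* with -0.31 and *ATP6AP2* with -0.28), 2 rose (*WNK1* with 0.48 and *ANO6* with 0.19) and 8 did not pass, where 7.27% of all genes were lower and 7.53% higher. The changes of *SLC9A3* and *SLC9A2* (-0.72 and -0.75) lay below the lowest of these 13 (-0.31), a difference that was not tested. Among all 16011 genes they ranked 438th and 399th from the lowest. Larger falls occurred in their own clusters, down to -1.38 in epithelial differentiation and -1.55 in the metabolism cluster of 354 genes.

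*SLC16A1*, whose product *BSG* accompanies, went with *BSG* closely. As a description over 62 sheep, *r* was 0.88 (rho = 0.87), and 0.86, 0.77, 0.92 and 0.86 within blocks 1 to 4. It was 0.78 with the muscle mean held constant. *SLC16A1* also went with *CA12* (0.80), and had *r* = 0.56 (rho = 0.72) with *SLC9A2* and 0.45 (rho = 0.60) with *SLC9A3*. Within blocks 1 to 4 its *r* was 0.24, 0.84, 0.73 and 0.72 with *SLC9A2* and 0.18, 0.63, 0.56 and 0.64 with *SLC9A3*. For CH4 production with block and muscle held constant it had a slope of 0.030 per g/d (SE 0.00873, adjusted *p* = 0.192), beside 0.021 for *BSG*. It was the highest of the 13, none of which passed.

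The genes with symbols whose levels were most like those of each member set the exchangers apart from *CA12* and *BSG* as well. These *r* values are descriptions over 62 sheep of 1 tissue, among 1236 genes with a symbol. For *SLC9A3* the 5 highest were *SLC9A2* (0.93), the keratin *KRT78* (0.92), *MAL*, a membrane protein of apical sorting (0.92), *C17orf47* (0.92) and the phosphatase *DUSP14* (0.92). For *SLC9A2* they were the stress kinase *MAPK13* (0.93), *MAL* (0.93), *SLC9A3* (0.93), the epidermal lipase *LIPN* (0.91) and *DUSP14* (0.89). In blocks 2–4 alone these *r* values were lower, at 0.67 to 0.70 for *SLC9A3* and 0.47 to 0.76 for *SLC9A2*. The numbers of all genes with *r* above 0.8 were 151 and 157 over 62 sheep, and 0 and 1 over the 46 sheep of blocks 2–4.

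For *CA12*, the 5 highest included the transporter *ABCC3* (0.86), the amine oxidase *MAOA* (0.85) and the lipid transfer protein *PLTP* (0.84). For *BSG* they included the protease inhibitor *SPINT2* (0.90), the acyl-CoA synthetase *ACSF2* (0.89), *MGST3* (0.89) and *ETFA-like* (0.89). In blocks 2–4 alone the *r* values of these named genes were 0.87 to 0.89 for *CA12* and 0.87 to 0.90 for *BSG*. Here the number of genes with *r* above 0.8 was higher over blocks 2–4 than over all sheep, at 55 against 16 for *CA12* and 62 against 48 for *BSG*. The difference between members in this change was not tested. The exchangers shared *MAL* and *DUSP14* among their 5.

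The 3 lowest for each member were in the muscle cluster of the study. They were *TRIO* (-0.77), *HOOK3* (-0.76) and *PDS5B* (-0.76) for *SLC9A3*, *SNX19* (-0.79), *TRIO* (-0.78) and *ZBED6* (-0.78) for *SLC9A2*, *NFKB* (-0.62), *NDRG2* (-0.61) and *TGFBR3* (-0.60) for *CA12*, and *DPYSL2* (-0.81), *SLC38A1* (-0.81) and *PCDHAC2* (-0.80) for *BSG*.

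The means of the gene clusters of the study were compared with each member, with a member left out of its own cluster. *BSG* had *r* = 0.95 (rho = 0.95) with the lipid/oxo-acid cluster mean, while *CA12* had 0.77 (rho = 0.79). *SLC9A2* had 0.71 (rho = 0.81) and *SLC9A3* 0.61 (rho = 0.68) with the same mean. Within blocks 1 to 4 these values were 0.93, 0.93, 0.96 and 0.94 for *BSG*, 0.68, 0.89, 0.93 and 0.93 for *CA12*, 0.62, 0.86, 0.78 and 0.79 for *SLC9A2*, and 0.57, 0.76, 0.62 and 0.62 for *SLC9A3*. With the mean of the epithelial differentiation genes *SLC9A3* had *r* = 0.79 over all sheep, 0.84 within block 1 and 0.13 to 0.30 within the other blocks. *SLC9A2* had 0.72, 0.87 within block 1 and -0.26 to -0.08 within the others. *BSG* and *CA12* had 0.28 and -0.18 with that mean over all sheep. The last mean was that of the other metabolism genes (those outside the lipid/oxo-acid and general metabolism groups). Over all sheep *r* with it was 0.83 for *SLC9A3*, 0.87 for *SLC9A2*, 0.78 for *BSG* and 0.32 for *CA12*. By rho the values were 0.73, 0.82, 0.85 and 0.46 in the same order, so *BSG* was highest. In blocks 2–4 alone *r* was 0.59, 0.67, 0.86 and 0.71, lower for both exchangers than for *BSG* and *CA12*. These are descriptions, and the points share library and tissue composition.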

How the data were processed

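Rumen wall RNA of 62 sheep was sequenced after removal of ribosomal RNA, with stranded paired-end libraries. Reads were aligned with TopHat (Bowtie2) and assigned to Ensembl sheep gene models by HTSeq. Each deposited value is a log2 CPM that the authors computed with voom (offset 0.5 reads), given for 16011 genes. The library size used in this scaling was not simply the sum of assigned reads. Whole reads were recovered from the deposited values (100% of values whole, tolerance 0.01 reads). They gave 4208032 to 12130080 assigned reads per sheep, median 7923973, which sets the precision of low genes.

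Symbols came from tables of the study, which pair some of the gene IDs with names. No gene lengths, coordinates or sequences were used here. CH4 yield was CH4 production over DMI. Groups were the labelled test blocks. All genes, with no filter, entered limma 3.58.1 (R 4.3.3, empirical Bayes with a mean-variance trend), with Benjamini-Hochberg adjustment across the 16011 and a threshold of 0.05. Block 1 was set against the average of the means of blocks 2 to 4, and 95% intervals come from the same fits. The fits were tested on simulated data. Relations between members and their within-sheep differences used 100000 permutations (numpy 2.4.6), adjusted over 6 pairs. For each member the 5 genes with a symbol highest and the 3 lowest in Pearson's *r* were named, except that some of the highest for *CA12* and *BSG* are not reported here.

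Alternatives were a filter at 3 CPM, quantile normalization, voom weights on the recovered reads, each sheep left out, another muscle measure, other covariates and other sets of sheep. The members, lists and tests were chosen with earlier results of these data known. Marker lists for endothelium, leukocytes and enteric neurons and glia matched no gene by symbol and were not analysed here.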

Additional observations from a re-analysis of the deposited data

How the results depend on the processing

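No paired analysis was possible because the replicate numbers only name sheep within a block and no sheep was in more than 1 block. The variance for each block, the muscle mean as the only covariate of the trait slopes, the tests with unequal variances and the omission of the 4 sheep lowest in *SLC9A3* were chosen after seeing the data. The block 1 differences of *SLC9A3*, *SLC9A2* and *BSG* without a covariate kept their direction and call in every alternative run for that fit. With muscle held constant, a separate comparison, that of *BSG* did not pass (-0.04). Without those 4 sheep, *CA12* was at -0.00158, genes differing between block 1 and the others numbered 2815 (5860 with all sheep), those differing over the 4 blocks 1576 (4242) and those differing in block 1 with muscle held constant 1112 (2369). With smooth muscle markers as the muscle measure the last count was 3737. *CA12* in block 1 with muscle held constant no longer passed at 0.28 with smooth muscle markers and at 0.27 without the 4 sheep, and ran from 0.33 to 0.44 with 1 sheep left out. *BSG* there was 0.0351 after quantile normalization and ran from -0.0558 to 0.000562 with 1 sheep left out. *SLC9A3* minus *SLC9A2* was 0.0162 on muscle residuals. Over the 4 blocks, *F* for *BSG* was 3.2 after quantile normalization (adjusted *p* = 0.0900, limma), and *F* for *CA12* ran from 2.03 to 4.79 with 1 sheep left out. Of the relations, *SLC9A2* and *CA12* had *r* = 0.326 with block means removed and -0.0938 with the muscle mean held constant, where *SLC9A3* had 0.015 with *BSG* and -0.279 with *CA12* (adjusted permutation *p* = 0.0436).

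No member passed for a trait except *BSG* for CH4 production without oz218 or oz143, as given above, so the changes of sign below are among values that did not pass. For CH4 production *SLC9A2* had slopes of -0.000561 with the muscle mean as a covariate and -0.000628 after quantile normalization, and *SLC9A3* 0.00163 with a variance for each block, 0.0218 in blocks 2–4 only and 0.0118 with test block as a covariate. With 1 sheep left out they ran from -0.00767 to 0.0114 and from -0.0148 to 0.00716, and with block and muscle held constant *SLC9A3* ran from -0.00199 to 0.0109. The count of genes for CH4 production was 2, and it was 7 with a variance for each block, 0 in blocks 2–4 only, 0 with the 3 CPM filter, 41 with the muscle mean as a covariate, 1 after quantile normalization, 4 with test block as a covariate, 0 with voom weights, and 0 to 8 with 1 sheep left out (8 without oz166 or oz192). With block and muscle held constant it was 10, and 6 with a variance for each block, 5 with smooth muscle markers, 2 with voom weights and 3 to 28 with 1 sheep left out (28 without oz143). For CH4 yield *BSG* had -0.00136 in blocks 2–4 only, -0.00186 with the muscle mean and -0.00249 with test block. *CA12* had 0.00114 with a variance for each block, 0.00471 in blocks 2–4 only, 0.000673 with test block, 0.000295 with voom weights, 0.000169 with oz151 and 0.0127 without oz175, and ran from -0.00629 to 0.0127 with 1 sheep left out. *SLC9A3* had -0.0193 in blocks 2–4 only and -0.00603 with test block. The count was 0, and 1 with a variance for each block, 2 with oz151, 18 without oz175 and 0 to 18 with 1 sheep left out. With block and muscle held constant, *BSG* and *CA12* had 0.00524 and 0.00335 after quantile normalization, *CA12* 0.000606 with a variance for each block, and *SLC9A2* -0.00156 with smooth muscle markers and -0.00059 with voom weights. With 1 sheep left out *CA12* ran from -0.0101 to 0.00407 and *SLC9A2* from -0.00984 to 0.00757. For DMI *SLC9A2* and *SLC9A3* had 0.331 and 0.338 in blocks 2–4 only and 0.165 and 0.0634 with test block. The count was 0, and 2 with a variance for each block, 3 with the muscle mean, 2 after quantile normalization, 4 without oz175 and 0 to 19 with 1 sheep left out (19 without oz192). With block and muscle held constant *SLC9A3* had -0.0689 after quantile normalization and ran from -0.102 to 0.129 with 1 sheep left out, *SLC9A2* ran from -0.0320 to 0.200, and the count was 0 to 2 (2 without oz143). The causes of these changes were not tested.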
